A study of Mus musculus with 6 samples.

Results

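Glycosyltransferases and sulfotransferases of the Golgi build the sugar chains of surface and secreted molecules, and 47 of their genes were followed in 393P, a mouse lung cancer cell line, with and without forced expression of Zeb1. The members were a list of gene names fixed with earlier results of these data known. Every probe set whose platform annotation names 1 of them alone was taken. This gave 110 probe sets for 47 of the 18193 genes that have a probe set of their own. By role the members fall into 15 enzymes of mucin-type O-glycans, 8 of N-glycans, 9 that extend or cap chains of several glycan classes, 6 of glycolipids and 9 that polymerise or sulfate glycosaminoglycans and related chains. The comparison set 3 cultures of 393P cells stably transfected with the empty pcDNA vector (control cells) against 3 cultures of 393P cells with stable, constitutive expression of Zeb1 (Zeb1 cells). All 6 were grown in the same medium with serum, and RNA of each was read on 1 Affymetrix array. The sources used here do not say how many transfections or clones each group stands for, so p-values measure the spread between these cultures.

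Mucin-type O-glycans start when a GalNAc residue is placed on serine or threonine by a Galnt enzyme, and are then elongated to branched cores and closed with sialic acid. N-glycans are trimmed and then branched by the Mgat enzymes. Sphingolipids become gangliosides when glucose, galactose and sialic acid are added in turn, and the long glycosaminoglycan chains of proteoglycans are polymerised and then sulfated. Zeb1 is a zinc-finger repressor of epithelial genes that binds E-box sequences, and changes of surface glycans are a known companion of the passage from epithelial to mesenchymal state.

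On its brightest probe set Zeb1 was at the floor of the signal scale on 2 of the 3 control arrays (log2 4.45, the 25th percentile of all values, to which lower signals were raised) and at 9.71, 9.59 and 9.78 on the Zeb1 arrays. A second tested probe set of Zeb1 was above the floor on every array. It was at 5.90, 5.95 and 6.84 in control cells and 7.37, 7.71 and 7.13 in Zeb1 cells, a log2 rise of 1.17. Among the epithelial markers 5 of 7 fell and 0 rose, with Cdh1 16.1-fold and Epcam 133-fold lower, while of the keratins Krt8 fell by 0.16 and Krt18 and Krt19 were not called. Of 5 mesenchymal markers 4 rose. Marker lists of other cell types lay low in both groups: the summed linear signal of 6 fibroblast markers was 288 to 458 in control cells and 336 to 414 in Zeb1 cells, of 6 leukocyte markers 389 to 467 and 350 to 471, and of 5 endothelial markers 326 to 461 and 322 to 465, and 0 of the 4 tested genes of these lists were called. Arrays report the average of a culture, so a change in every cell and a change in some of the cells cannot be told apart.

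Of the 47 members 43 had enough signal to be tested, and 35 of those differed between Zeb1 and control cells, 24 higher and 11 lower. A gene was called when the adjusted p of limma's moderated test, corrected over all 11893 tested genes by Benjamini-Hochberg, was under 0.05. That is 81.4% of the tested members, where 50.5% of all tested genes were called, 26.4% as higher and 24.1% as lower. Changes of at least 2-fold were called in 21 members (48.8%), 16 up and 5 down, where 15.8% of all tested genes passed that rule, 9.01% up and 6.80% down. In 38 of the 43 members every array of 1 group lay above every array of the other. Among all tested genes this held for 6920 of 11893 (58.2%). The median log2 change was 0.56 over the members and 0.01 over all tested genes, and the median size of a log2 change was 0.98 and 0.36. Because the members were chosen with earlier results of these data known, an excess over all tested genes is no independent result. How far the choice raised the shares was not tested.

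Testing required a signal no lower than the median of its own array on 3 or more of the 6 arrays, and 4 members (B3gnt5, B4galt4, Chst1 and Galnt12) passed it through 1 group alone. On the 34 members above the median on all 6 arrays 29 were called (85.3%), 20 up and 9 down, against 53.5% of the 9898 genes that passed the same filter. At least 2-fold changes were then 14 of 34 (41.2%) against 11.2%. Members were measured at a slightly higher level than genes in general, with a median log2 signal of 9.36 against 9.09 and a median standard error (SE) of a log2 change of 0.116 against 0.129, and the part of this in the share called was not tested.

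**Figure D1:**
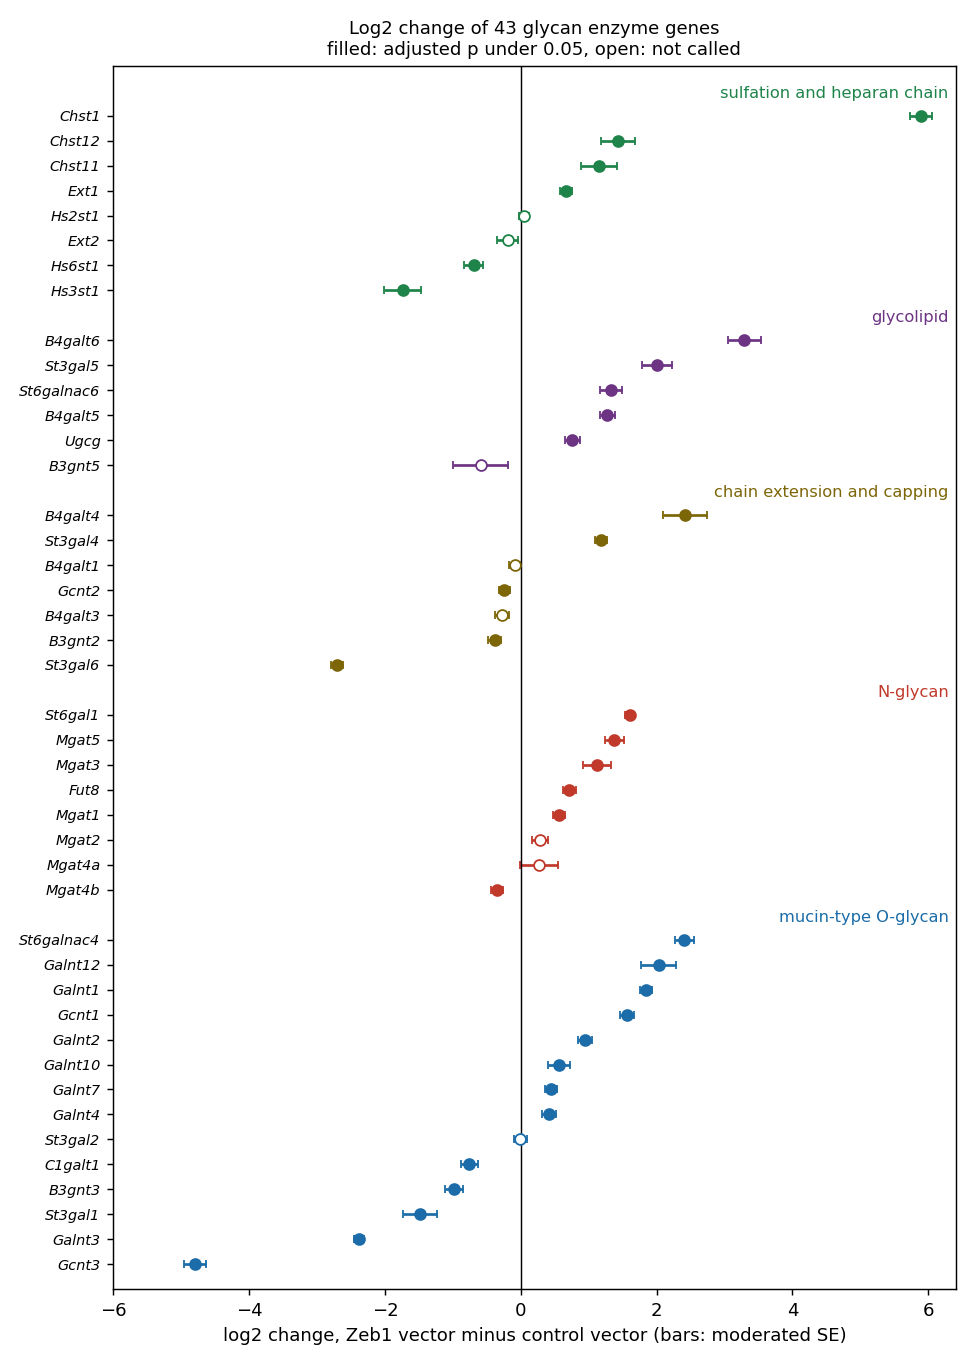
Log2 change from control to Zeb1 cells for the 43 tested members, grouped by role, with bars for the moderated SE, filled points for called genes and open points for genes not called. The changes run from -4.80 for Gcnt3 to 5.89 for Chst1, and the glycolipid enzymes lie to the right of 0 apart from B3gnt5.

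The enzymes of mucin-type O-glycans changed in both directions. Most of the initiating enzymes rose, and the enzymes that build and extend the cores went both ways. Of 14 tested members 8 rose, 5 fell and 1 was not called, a share of 92.9% called against 50.5% of all tested genes. The median log2 change was 0.43. Among the 8 Galnt genes, which encode the GalNAc transferases that start the chain, 6 rose, Galnt3 fell and Galnt6 was not tested.

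Galnt1, a broadly expressed initiating enzyme, had log2 signals of 11.02, 11.11 and 10.86 in control cells and 12.99, 12.81 and 12.74 in Zeb1 cells. Every Zeb1 array lay above every control array, and the rise was 1.85 on the log2 scale (SE 0.09, limma adjusted p = 7.76e-08), or 3.60-fold. Galnt12 rose from 5.24, 5.41 and 5.78 to 7.63, 7.48 and 7.40, a log2 change of 2.03 (SE 0.25, adjusted p = 8.71e-05). Its control signals lay below the median of the table, so it entered the test through the Zeb1 cells alone, which favours a call. Under a higher floor, the 50th percentile (log2 6.32), its change was 1.18. Smaller rises were those of Galnt2 (0.95), Galnt10 (0.56), Galnt7 (0.44) and Galnt4 (0.41). In each of them the groups did not overlap on the brightest probe set. The other tested probe sets of Galnt4 (0.24, adjusted p = 0.292) and Galnt10 (0.45, adjusted p = 0.0626) were not called. Galnt7 and Galnt10 encode enzymes that prefer peptides which already carry GalNAc. The call of Galnt7 was lost when its 3 tested probe sets were averaged (log2 change 0.27, adjusted p = 0.117).

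Galnt3 went the other way. This initiating enzyme is typical of secretory epithelia and is known for glycosylating the phosphate hormone Fgf23. Its log2 signals were 11.97, 11.91 and 11.97 in control cells and 9.59, 9.56 and 9.55 in Zeb1 cells, and the arrays within each group lay close together. The log2 change was -2.38 (SE 0.07, adjusted p = 3.23e-09), or 5.21-fold, and a second probe set had a log2 change of -1.83. Galnt6 had no probe set above the filter, and the brightest of its 3 had means of 5.46 ± 1.01 in control and 4.90 ± 0.768 in Zeb1 cells (SD, n = 3 each), with overlapping arrays.

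The largest fall of any member was that of Gcnt3, which encodes a branching enzyme that makes core 2 and core 4 structures on mucins of secretory epithelia. Its log2 signals were 11.36, 11.37 and 11.35 in control cells and 6.96, 6.45 and 6.27 in Zeb1 cells. The control arrays were nearly equal and the Zeb1 arrays all lay far below them, with a log2 change of -4.80 (SE 0.16, adjusted p = 9.71e-09), 27.8-fold lower. Both of its other probe sets were called as falls too, with log2 changes of -5.45 and -3.20. Gcnt1, whose enzyme makes core 2 branches in many tissues, rose instead, from 9.72, 10.08 and 9.71 to 11.50, 11.37 and 11.33. Its log2 change was 1.56 (SE 0.11, adjusted p = 1.36e-06), or 2.95-fold, so the 2 core 2 enzymes changed in opposite directions with no overlap of arrays in either.

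Core 1 itself is made by C1galt1, which adds galactose to the first GalNAc, and this gene fell by 0.76 (adjusted p = 0.000576). Its 2 other tested probe sets had log2 changes of -0.17 and -0.12 and were not called, and the mean of the 3 had a log2 change of -0.35. B3gnt3, which extends core 1 with GlcNAc, fell by 0.98 (adjusted p = 0.00018), with 9.50, 9.06 and 9.30 in control and 8.27, 8.43 and 8.23 in Zeb1 cells.

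Sialylation of core 1 also divided. St3gal1, which caps the galactose of core 1 and thereby competes with branching, had log2 signals of 7.69, 7.67 and 7.70 in control cells and 6.08, 6.69 and 5.83 in Zeb1 cells. The Zeb1 arrays were lower and more scattered, with a log2 change of -1.49 (SE 0.25, adjusted p = 0.000652). St3gal2, a related enzyme with a similar acceptor, was not called (log2 change -0.01, SE 0.10, adjusted p = 0.972) with overlapping arrays. St6galnac4 adds a further sialic acid to the GalNAc of an already sialylated core 1, and it rose from 7.30, 7.61 and 7.14 to 9.74, 9.67 and 9.87. It rose by 2.41 (SE 0.15, adjusted p = 4.97e-07), or 5.31-fold, and its second probe set rose by 1.61.

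**Figure D2:**
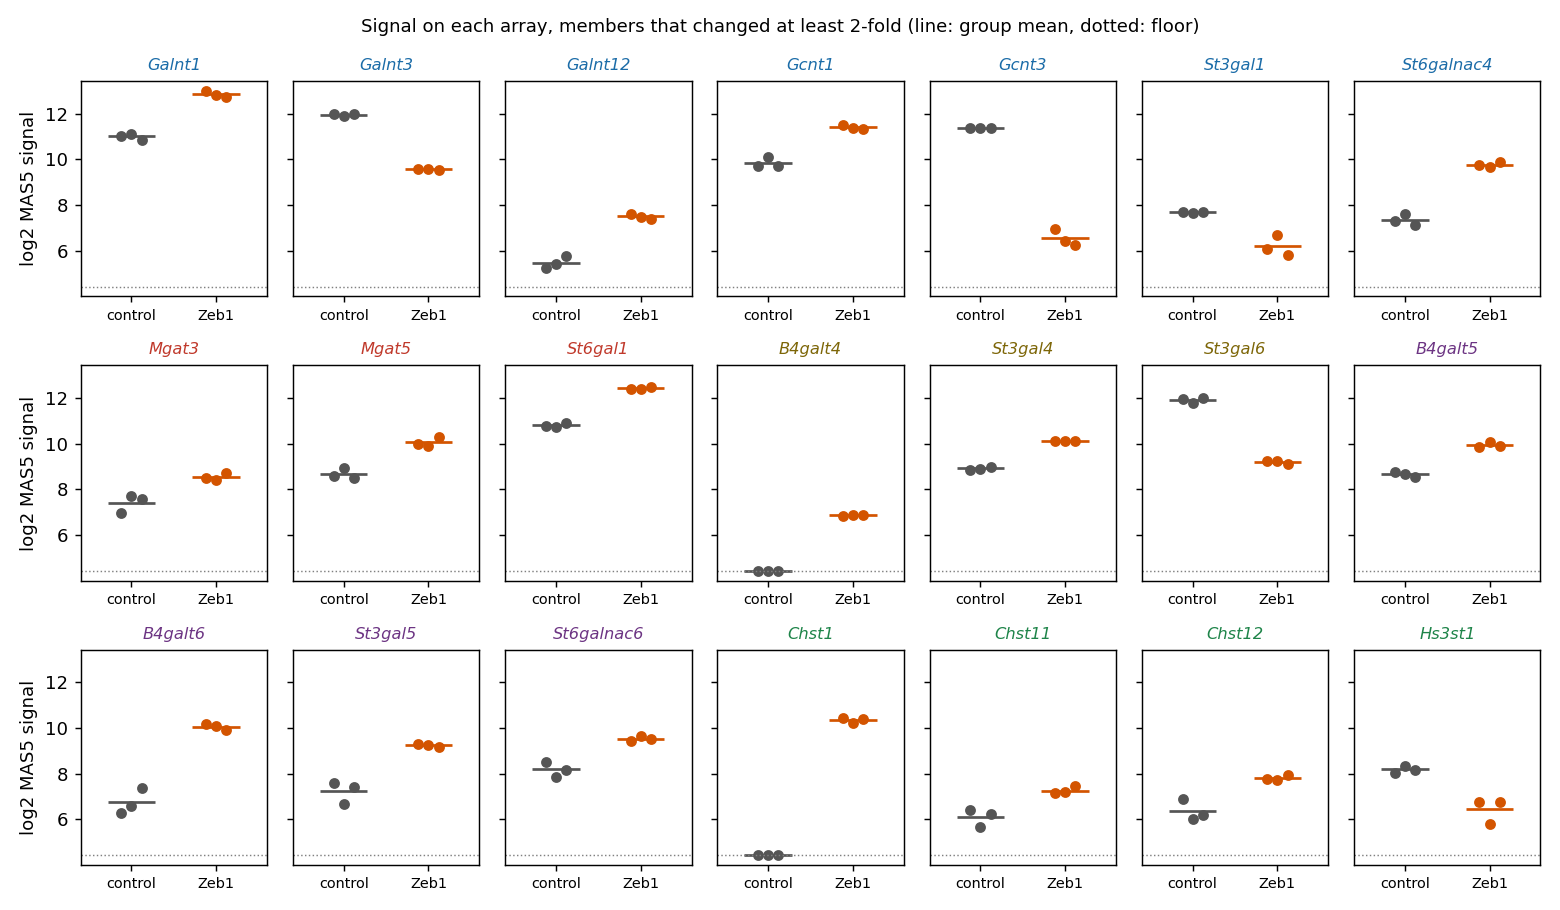
Log2 MAS5 signal on each of the 3 control arrays (grey) and 3 Zeb1 arrays (orange) for the 21 members called with a change of at least 2-fold; lines are group means, the dotted line is the floor at 4.45 and title colours give the role. In all 21 the groups do not overlap, which the choice of called changes of this size favours. The control points of Chst1 and B4galt4 lie on the floor.

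Because Zeb1 binds E-boxes, the promoters of the members that fell were searched for the E-box letters CAGGTG and CACCTG, which are each other's reverse complement, so that both strands were read. RefSeq windows of build GRCm38.p6, from 250 bases before to 50 after an annotated start, were at hand for 35 of the 47 members. A match was found in 3 of the 8 fallen members with a window, in 3 of the 17 that rose, in 1 of the 7 not called, in 2 of the 3 not tested, and in 22.6% of the 27025 genes in the table. The fallen members with a match are Galnt3, with matches starting at -170, -57 and 40 from the start, C1galt1 at -114 and 43, and B3gnt3 at -135, all 3 enzymes of mucin-type O-glycans. The risen members with a match are Gcnt1, also an enzyme of mucin-type O-glycans, at -73 and -130, Fut8 at -91 and -68, and St6galnac6 at -227. In Gcnt1 and Fut8 each match lies in a separate window. A window with 3 or more matches was held by 0.422% of the genes in the table, Galnt3 among them. St3gal6, the member with the second largest fall, has 2 windows and neither holds a match. The fallen members Gcnt3, St3gal1 and Mgat4b have no window. The 250 bases before the start are printed on the gene's own strand, with matches in capitals, for the 3 fallen members with a match and for 1 window of St3gal6; the matches at 40 and 43 lie outside them. A match describes these letters and shows no binding.
Galnt3, minus strand, chr2:66124794-66125043: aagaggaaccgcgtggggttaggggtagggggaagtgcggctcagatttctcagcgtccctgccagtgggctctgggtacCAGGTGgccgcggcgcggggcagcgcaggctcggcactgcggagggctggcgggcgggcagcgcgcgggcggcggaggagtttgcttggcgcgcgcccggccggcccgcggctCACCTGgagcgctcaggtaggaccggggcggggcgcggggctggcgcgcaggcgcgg
C1galt1, plus strand, chr6:7844974-7845223: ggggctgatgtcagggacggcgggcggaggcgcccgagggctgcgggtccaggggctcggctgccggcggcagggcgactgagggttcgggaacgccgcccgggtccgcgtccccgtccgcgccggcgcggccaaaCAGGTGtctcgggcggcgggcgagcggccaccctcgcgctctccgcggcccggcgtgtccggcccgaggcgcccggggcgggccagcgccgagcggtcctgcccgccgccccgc
B3gnt3, minus strand, chr8:71701801-71702050: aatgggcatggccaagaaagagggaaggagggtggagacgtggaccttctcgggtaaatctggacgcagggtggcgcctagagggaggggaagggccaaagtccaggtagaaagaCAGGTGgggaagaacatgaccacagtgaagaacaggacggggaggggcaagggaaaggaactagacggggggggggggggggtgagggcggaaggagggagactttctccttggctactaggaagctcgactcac
St3gal6, minus strand, chr16:58523427-58523676: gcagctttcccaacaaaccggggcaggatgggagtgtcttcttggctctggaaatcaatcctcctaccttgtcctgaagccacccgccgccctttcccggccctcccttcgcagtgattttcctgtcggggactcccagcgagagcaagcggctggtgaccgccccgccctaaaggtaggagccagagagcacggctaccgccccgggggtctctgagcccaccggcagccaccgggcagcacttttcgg

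Most enzymes of complex N-glycans rose. Of 8 members, all of them tested, 5 rose and 1 fell, with a median log2 change of 0.64, and 2 were not called. The share called was 75.0%, against 50.5% of all tested genes. Mgat1, which adds the GlcNAc that opens the way to complex N-glycans, rose by 0.56 (9.54, 9.57 and 9.52 to 10.12, 10.17 and 10.05, adjusted p = 0.000266). Mgat2 adds the next branch and was not called (log2 change 0.29, adjusted p = 0.065), although its arrays did not overlap, and its other probe set was called as a rise of 0.46 (adjusted p = 0.00989). It was called as higher without control vector replicate 3 (0.37, adjusted p = 0.0354) and in 4 other settings given among the limits.

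Mgat5 makes the branch that is favoured for long lactosamine chains and for galectin binding. Its log2 signals were 8.57, 8.94 and 8.51 in control cells and 9.97, 9.91 and 10.28 in Zeb1 cells. All Zeb1 arrays lay above all control arrays, and the rise was 1.38 (SE 0.14, adjusted p = 2.41e-05), or 2.60-fold, with 1.33 on a second probe set. Mgat3, which adds the bisecting GlcNAc that hinders further branching, rose as well, from 6.96, 7.70 and 7.57 to 8.49, 8.39 and 8.71. Its log2 change was 1.12 (SE 0.20, adjusted p = 0.00108), so the enzymes with opposed effects on branching were both higher. The paralogues that make the remaining branch were not: Mgat4b fell by 0.35 (adjusted p = 0.00884), and Mgat4a was low in both groups and not called (adjusted p = 0.459), with probe sets of opposite sign (0.27 and -0.72).

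Fut8, which attaches the core fucose, rose by 0.72 (8.90, 9.04 and 9.05 to 9.64, 9.68 and 9.81, adjusted p = 0.000178). St6gal1 ends N-glycan antennae with sialic acid and blocks galectin binding there. Its log2 signals were 10.79, 10.74 and 10.90 in control cells and 12.38, 12.39 and 12.47 in Zeb1 cells. The Zeb1 arrays lay together well above the controls, a rise of 1.61 (SE 0.07, adjusted p = 3.61e-08), or 3.05-fold, and a second probe set rose by 1.08.

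Enzymes that extend and cap chains on several glycan classes divided, and the sialyltransferases St3gal4 and St3gal6 changed in opposite directions. Of 7 tested members 2 rose and 3 fell (71.4% called, against 50.5% of all tested genes), with a median log2 change of -0.24. St3gal4 and St3gal6 encode enzymes that place sialic acid on lactosamine ends, a step towards sialyl Lewis x. St3gal6 had 11.96, 11.76 and 11.999 in control cells and 9.25, 9.24 and 9.11 in Zeb1 cells. Each Zeb1 array was far below each control array, with a log2 change of -2.71 (SE 0.09, adjusted p = 7.09e-09), 6.53-fold lower, and its 3 other tested probe sets had log2 changes of -2.56, -2.37 and -1.43. St3gal4 rose from 8.86, 8.91 and 8.998 to 10.11, 10.12 and 10.10, by 1.19 (SE 0.09, adjusted p = 2.34e-06).

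B4galt4, a galactosyltransferase that can act on sulfated GlcNAc, did not exceed the floor in any control culture and was at 6.84, 6.87 and 6.88 in Zeb1 cells, at least 5.35-fold higher (adjusted p = 0.000152). This bound rests on the floor, since its log2 change of 2.42 became 0.54 under the higher floor and 5.21 when no floor was set. The floored control values of B4galt4 hold no measured spread. It entered the test through the Zeb1 cells alone, which favours a call. The related B4galt1 and B4galt3, which add galactose to many chains, had log2 changes of -0.08 and -0.27 and were not called (adjusted p = 0.453 and 0.0525). B4galt3 was called as lower without control vector replicate 3 (-0.34, adjusted p = 0.0289) or Zeb1 vector replicate 3 (-0.32, adjusted p = 0.0467). B3gnt2, the main enzyme of long lactosamine chains, fell by 0.38 (adjusted p = 0.00722).

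Gcnt2, which branches those chains into I antigen, fell by 0.24 (adjusted p = 0.0283) on its brightest probe set, a call lost without control vector replicate 2 (adjusted p = 0.0819) and without Zeb1 vector replicate 1, 2 or 3 (0.0798, 0.0545 and 0.0567). Averaged over its 5 tested probe sets the log2 change was -0.81 (adjusted p = 0.0121). Fut1 and Fut2, which make the H antigen, were not tested: Fut1 lay at the floor on all 6 arrays, and the brightest probe set of Fut2 was at the floor in each control culture and at 5.39, 6.24 and 4.93 in Zeb1 cells.

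Most of the glycolipid enzymes rose, among them those that lead from ceramide to the ganglioside GM3. Of 6 members, all tested, 5 rose, 0 fell, and the median log2 change was 1.30. The share called was 83.3%, against 50.5% of all tested genes. Ugcg, which makes glucosylceramide and so opens the pathway, rose by 0.76 (9.48, 9.19 and 9.33 to 10.22, 10.07 and 9.99, adjusted p = 0.000189). Of its 3 tested probe sets 2 were called, and the log2 changes ran from 0.35 to 0.76. The next step, addition of galactose to give lactosylceramide, is shared by B4galt5 and B4galt6.

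B4galt6 had log2 signals of 6.27, 6.60 and 7.37 in control cells and 10.15, 10.06 and 9.89 in Zeb1 cells. The control arrays were scattered and the Zeb1 arrays close together and higher, with a log2 change of 3.29 (SE 0.24, adjusted p = 2.01e-06), or 9.77-fold. All 4 of its probe sets were called as rises, by 2.36 to 4.39. B4galt5 rose from 8.77, 8.68 and 8.54 to 9.85, 10.07 and 9.90, by 1.28 (SE 0.11, adjusted p = 5.71e-06). It was read by a probe set of a design that can match more than 1 gene, although the annotation names B4galt5 alone. The other probe set of B4galt5 lay low and was not tested. Its means were 5.10 in control and 5.01 in Zeb1 cells, with overlapping arrays.

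St3gal5, which turns lactosylceramide into the ganglioside GM3, had 7.61, 6.67 and 7.41 in control cells and 9.28, 9.26 and 9.16 in Zeb1 cells. Its log2 change was 2.00 (SE 0.22, adjusted p = 3.52e-05), or 4.01-fold, and the groups did not overlap. A second probe set was at the floor in each control culture, with a log2 change of 3.85, which is a lower bound. St6galnac6, which sialylates further gangliosides, rose from 8.50, 7.86 and 8.18 to 9.41, 9.63 and 9.51, by 1.33 (SE 0.16, adjusted p = 6.69e-05). B3gnt5, which diverts lactosylceramide into another series of glycolipids, was not called (-0.59, SE 0.41, adjusted p = 0.261) and its arrays overlapped. Outside the members, B4galnt1, which takes GM3 on to complex gangliosides, fell by 0.57 (adjusted p = 0.043).

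**Figure D3:**
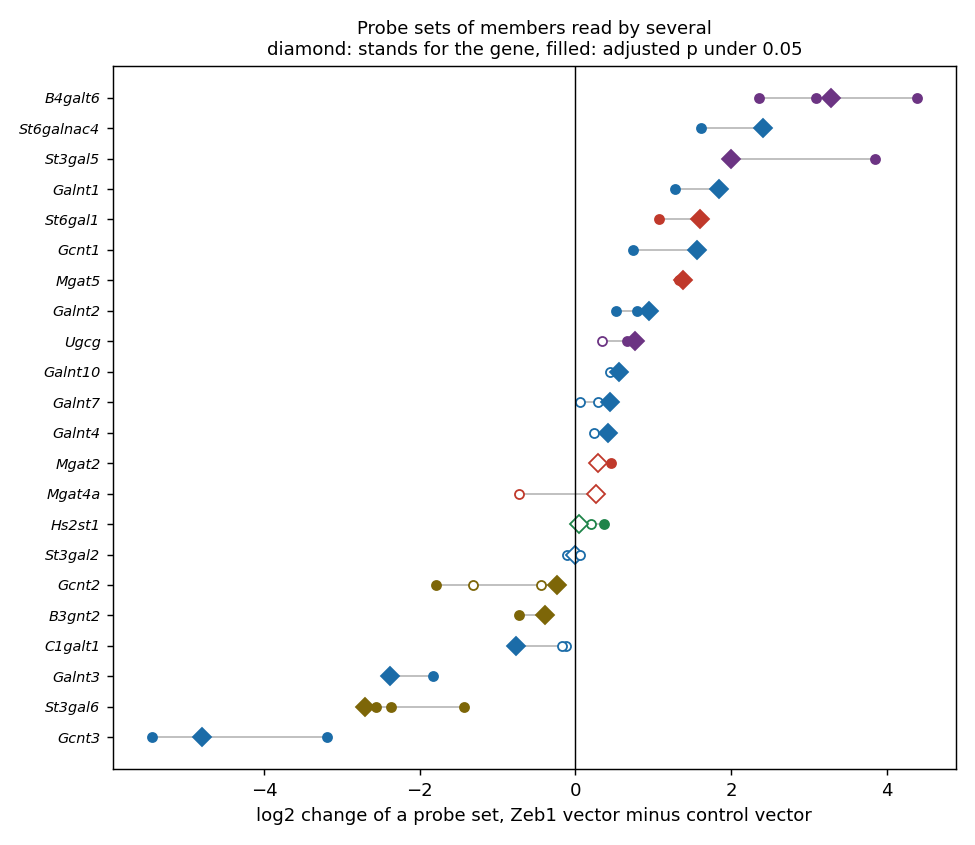
Log2 change of every tested probe set of the 22 members read by several, ordered by the probe set that stands for the gene (diamond); filled symbols were called and colours give the role. The 4 probe sets of B4galt6 and the 4 of St3gal6 lie on 1 side of 0 each, while those of Mgat4a and St3gal2 lie on both sides.

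Probe sets of the same member gave the same direction with 2 exceptions. Of 22 members with several tested probe sets 20 had changes of 1 sign, 12 had every probe set called the same way, and 0 had calls in opposite directions. The exceptions, Mgat4a and St3gal2, had no called probe set. In all, 57 of 79 tested member probe sets were called (72.2%, against 46.1% of all tested probe sets), 38 up and 19 down.

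Among the members that build sulfated chains, Chst1, Chst11, Chst12 and Ext1 rose and Hs3st1 and Hs6st1 fell. Of 8 tested members 4 rose and 2 fell (75.0% called, against 50.5% of all tested genes), with a median log2 change of 0.35. Chst1, which sulfates the galactose of keratan sulfate and related chains, had the largest rise of any member. It was at the floor in each control culture and at 10.42, 10.22 and 10.37 in Zeb1 cells, at least 59.4-fold higher (log2 change 5.89, SE 0.16, adjusted p = 2.64e-09). The control values were all set to the floor, so the SE and adjusted p hold no measured spread of the control arrays. Chst1 entered the test through the Zeb1 cells alone, which favours a call. Under the higher floor the log2 change was 4.01.

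Chst11 and Chst12 both sulfate the GalNAc of chondroitin. Chst11 rose from 6.42, 5.67 and 6.23 to 7.14, 7.20 and 7.45, by 1.15 (SE 0.26, adjusted p = 0.00421), and its control signals were low. The other probe set of Chst11 was not tested and had overlapping arrays. Chst12 rose from 6.89, 6.03 and 6.21 to 7.75, 7.73 and 7.95, by 1.43 (SE 0.25, adjusted p = 0.000798). On these probe sets of Chst11 and Chst12 each Zeb1 array lay above each control array, and the control arrays were the more scattered. Chst2, a GlcNAc sulfotransferase, was not tested. It lay at or within 0.01 of the floor on the control arrays and at 5.74, 6.296 and 5.79 in Zeb1 cells, and with no filter its log2 change was 1.49 (adjusted p = 0.00288).

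Hs3st1, which adds a rare sulfate that completes the antithrombin site of heparan sulfate, had 8.04, 8.35 and 8.17 in control cells and 6.78, 5.79 and 6.78 in Zeb1 cells. All Zeb1 arrays were lower, 1 of them well below the others, with a log2 change of -1.74 (SE 0.27, adjusted p = 0.000422). Hs6st1, another sulfotransferase of heparan sulfate glucosamine, fell by 0.69 (adjusted p = 0.00217), from 8.61, 8.86 and 8.64 to 8.21, 7.92 and 7.90. Hs2st1, which sulfates its uronic acid, was not called on its brightest probe set (0.04, SE 0.07, adjusted p = 0.658), while another of its 3 tested probe sets was called as a rise of 0.37 (adjusted p = 0.00801). Ext1 and Ext2 together form the polymerase of the heparan chain, and Ext1 rose by 0.66 (adjusted p = 0.000155) while Ext2 had a log2 change of -0.19 and was not called (adjusted p = 0.351).

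The other genes of these pathways were read from 7 lists, of which 113 genes were tested, 45 rose and 22 fell. That is 59.3% called, where 50.5% of all tested genes were called, and by list the share ran from 35.7% for other sialyl-, fucosyl- and glycolipid enzymes to 71.9% for nucleotide sugar supply. The lists, like the members, were chosen with earlier results of these data known. Several genes named below, Papss2, Csgalnact1, Chsy3, Hs6st2, Galnt18 and B3galnt1 among them, had every control signal under the median of all values (log2 6.32). Galnt9 had every Zeb1 signal under it. Their entry to the test rested on the group where they were high, which favours a call. In nucleotide sugar supply and transport 16 of 32 rose and 7 fell, with a median log2 change of 0.31. Papss2, an enzyme that makes the sulfate donor used by all the sulfotransferases, rose from 4.77, 4.89 and 5.01 to 8.35, 8.51 and 8.81 (log2 change 3.67, adjusted p = 6.24e-07, and 2.23 under the higher floor). Papss1, another maker of that donor, named after its values were seen, was brighter in both groups. It rose from 10.21, 10.66 and 10.52 to 11.11, 11.16 and 11.27, by 0.71 (adjusted p = 0.000431). The nucleotide sugar transporter Slc35d1 rose by 1.78. Gmds, the first enzyme of GDP-fucose synthesis, fell by 1.20 (adjusted p = 1.69e-05), and Pmm1, a phosphomannomutase, fell by 0.92.

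In the list of other heparan and chondroitin sulfate enzymes 11 of 22 rose and 2 fell (59.1% called), with a median log2 change of 0.41. Csgalnact1, which starts chondroitin chains, rose from 4.995, 4.59 and 6.28 to 9.99, 9.95 and 9.94, by 4.67 (adjusted p = 2.68e-06), and by 3.64 under the higher floor. Chsy3, a chondroitin polymerase, rose from 4.72, 4.81 and 5.53 to 9.74, 9.56 and 9.62, by 4.62 (adjusted p = 1.35e-07), and by 3.32 under that floor. The falls were those of Ust, which sulfates uronic acid, by 0.90 and of Glce, the heparan epimerase, by 0.30. The other genes of the list called at 2-fold or more, named after their values were seen, all rose. Hs6st2, a heparan sulfate sulfotransferase related to the fallen member Hs6st1, rose from 4.94, 5.67 and 5.26 to 8.02, 8.10 and 7.36, by 2.54 (adjusted p = 5.9e-05), and by 1.504 under the higher floor. The dermatan epimerase Dsel rose by 2.42 and the chondroitin polymerase Chsy1 by 1.88.

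Among 8 other tested genes of the O-GalNAc pathway 3 rose and 2 fell (62.5% called), and their median log2 change was -0.02. Galnt9, an initiating enzyme, went from 7.36, 6.84 and 6.46 to the floor on all 3 Zeb1 arrays, at least 5.42-fold lower (adjusted p = 0.000302), and its log2 change was -0.56 under the higher floor. Galnt18 rose by 1.21 (0.42 under that floor) and Galnt11 by 0.96, and B3gnt7 fell by 0.88. The remaining rise, named after its values were seen, was that of C1galt1c1, by 0.44 (adjusted p = 0.0441), with overlapping arrays. The member C1galt1 was called as a fall on 1 of its 3 tested probe sets. Of 21 genes of N-glycan assembly and trimming 6 rose and 5 fell, a share of 52.4% that lies near the 50.5% of all tested genes, with a median of 0.01. The Golgi mannosidase Man2a1, which acts between Mgat1 and Mgat2, rose by 1.78 (8.38, 8.28 and 8.28 to 10.10, 10.09 and 10.09, adjusted p = 1.93e-07), and Man1a2, an earlier mannosidase, fell by 1.08.

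Other sialyl-, fucosyl- and glycolipid enzymes were called in 5 of 14, 3 up and 2 down, with a median of -0.02. B3galnt1, the globoside synthase, was at the floor in each control culture and at 8.92, 8.80 and 8.81 in Zeb1 cells, at least 21.1-fold higher (adjusted p = 1.06e-07). Its log2 change was 4.40, and 2.52 under the higher floor. St8sia6, which adds sialic acid to sialic acid, rose by 3.14, and by 2.33 under the higher floor. The falls were those of B4galnt1 and of Pofut2, an O-fucosyltransferase, by 0.32.

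Of the proteins that carry or read these glycans, 4 of 10 tested mucins and mucin-like proteins fell and 3 rose. Their median log2 change was -0.27, and 70.0% were called, against 50.5% of all tested genes. Muc1, the transmembrane mucin of simple epithelia, fell from 10.62, 10.49 and 10.53 to 7.19, 6.01 and 6.06 (log2 change -4.13, adjusted p = 9.17e-07), 17.5-fold lower, and the mucin-like podoplanin, Pdpn, fell by 1.66. Cd34 and Cd24a, heavily glycosylated surface proteins, rose by 1.95 and 1.34. The signal of Cd34 was at the floor on 2 of the 3 control arrays, and its log2 change was 0.42 under the higher floor. Of 6 galectins, lectins that bind galactose ends, 3 rose, 0 fell and 3 were not called, with Lgals2 up by 2.51 and Lgals8 by 1.10.

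**Figure D4:**
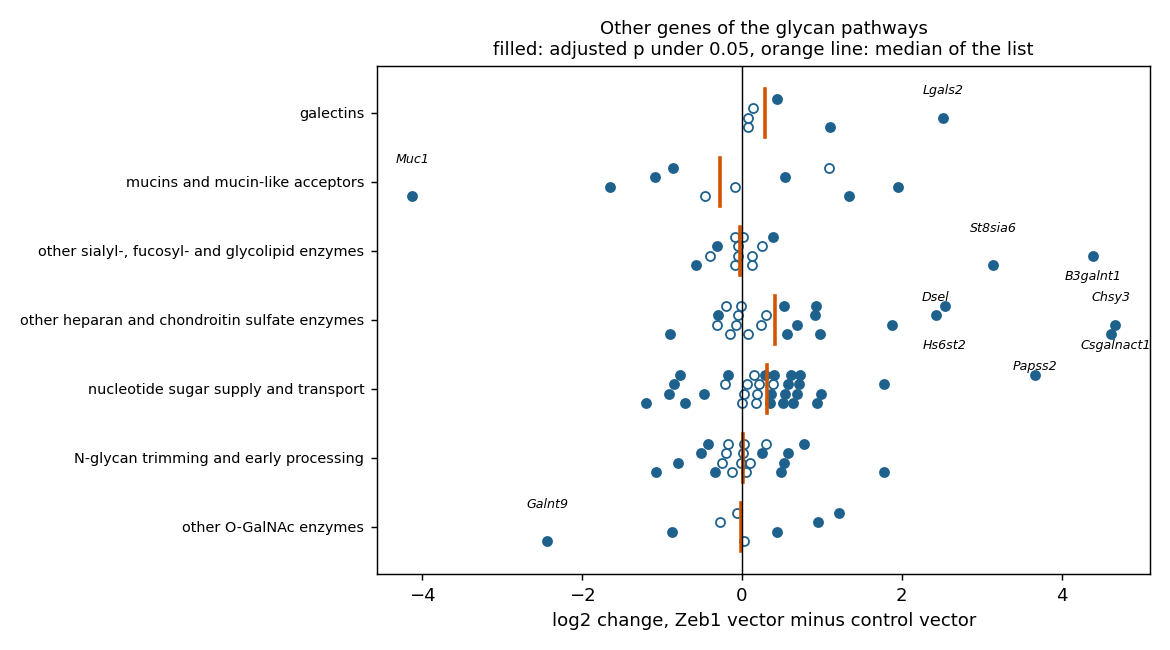
Log2 change of each tested gene in the 7 lists of other glycan pathway genes; filled points were called, the orange line is the median of the list and called genes with a log2 change of at least 2 in either direction are labelled. The heparan and chondroitin list holds 4 labelled rises, and Muc1 at -4.13 is the lowest point.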

How the data were processed

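Log2 signals of 45101 probe sets on 6 arrays were used as the authors deposited them; the submitters' processing notes name MAS5 with no version. Each array had a 2% trimmed linear mean of 500, so arrays had been scaled before deposit. The 2 missing values and all signals under the 25th percentile (log2 4.45) were set to it. Probe sets were tested if at or above their array's median on at least 3 arrays (20594, 11893 genes), and the brightest stood for its gene. Symbols came from the platform annotation, matched by Entrez identifier to RefSeq GRCm38.p6 (34741 of 34945). Groups were compared with limma 3.58.1 in R 4.3.3 (intensity trend, Benjamini-Hochberg), after the fit was tested on simulated data. Adjusted p-values of genes and of probe sets come from separate fits over all genes and all probe sets. A change from the floor is a lower bound. The number of arrays limits precision. Members, roles and lists were chosen with earlier results of these data known. By rule, values on every array are given for members called at 2-fold or more, and of each other list at most the 2 largest called rises and falls are named; array values of further genes were added after their values were seen. The alternatives were other floors, filters, normalization, probe set averaging, no trend, a replicate block and leaving out each array in turn (with the tested genes kept).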

Additional observations from a re-analysis of the deposited data

How the results depend on the processing

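Across 14 alternative settings 38 of the 43 tested members kept their call wherever they were tested (St3gal2, not called in any setting, had changes of both signs, -0.05 to 0.05), and the 5 that did not were Gcnt2, Galnt7, Mgat2, Mgat4a and B4galt3. The members called ranged from 29 (of 34 tested, above the median on all 6 arrays) to 37 (quantile normalization, or without control vector replicate 3). The median log2 change of the members was 0.54 under the higher floor (50th percentile), 0.50 with the filter on all 6 arrays, 0.48 with quantile normalization and 0.51 with the mean of probe sets, and 0.49 to 0.56 when any 1 array was left out. Under the same floor Mgat4a had a log2 change of -0.50 (adjusted p = 0.0309), where its other probe set stood for the gene. The call of Gcnt2 was also lost with no filter and with no trend (limma adjusted p = 0.0515 and 0.0646). Mgat2 was called with the filter on all 6 arrays, quantile normalization, the mean of probe sets and the replicate block (adjusted p = 0.0441, 0.0493, 0.00719 and 0.0202), and B4galt3 with quantile normalization and the mean of probe sets (0.0375 and 0.0418).

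With the replicate number as a block 36 members were called, 25 up and 11 down. No pairing by number was seen, since deviations of same-numbered arrays correlated at 0.04, -0.03 and -0.07 across genes. These values cannot exclude that the numbers mark a shared step. Signal over background limits the genes whose arrays lie at or near the floor.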
